A study of Mus musculus with 6 samples.

Results

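Aldehyde dehydrogenases oxidise reactive aldehydes to carboxylic acids with NAD+ or NADP+ as cofactor. Members of the family differ in substrate and in place: some act in the cytosol on retinaldehyde, some in mitochondria on acetaldehyde, and some at membranes on fatty aldehydes. Their combined activity is used to mark stem and progenitor cells of the blood, and in mice it protects these cells from endogenous aldehydes. The 8 genes described here are Aldh1a1, Aldh1a7, Aldh3a1, Aldh3a2, Aldh2, Aldh1b1, Aldh7a1 and Aldh9a1, out of 18193 genes with a usable annotation, and they were read by 15 of the 45101 probe sets on the array. All probe sets annotated to these genes were taken, and each of the 15 carried only 1 gene symbol.

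RNA came from Ba/F3, a mouse pro-B cell line that grows on interleukin 3, transduced with a retroviral Tet-on system that expresses NCOR1-LYN when doxycycline is present. NCOR1-LYN joins parts of the nuclear receptor corepressor NCOR1 and of the SRC family tyrosine kinase LYN. The NCOR1-LYN group was 3 cultures given doxycycline, and the control group was 3 uninduced cultures without it, with 1 Affymetrix Mouse Genome 430 2.0 array each. The cultures are called triplicates with no further word on their independence, so a p-value here covers only how these 6 arrays vary. Doxycycline and the fusion protein went together in every culture and cannot be told apart. Induction of the fusion was not checked here.

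Values are MAS5 signals, a linear intensity that was scaled by the authors to the same trimmed mean of 500 on every array. Differences are given as log2(signal + 64), NCOR1-LYN minus control, a scale that understates the change of dim genes. Replicate 1 of both groups lay apart from the rest. Along the leading principal component (10916 tested genes, 58.0% of the variance) the replicate 1 arrays were at −24.9 (NCOR1-LYN) and −37.2 (control), and the other 4 arrays lay between 12 and 18.6. Same-numbered arrays are therefore set against each other as pairs below. Of 9 B lymphoid markers on the array only 3 had a mean signal of at least 64, Cd79b, Pax5 and Igll1, while Rag1 and Rag2 were among the dimmest at 8.89 and 4.70. Pax5 (7.65 to 125) and Igll1 (13.9 to 179) varied widely and fell under 64 on some arrays, while Cd79b did not. The 5 fibroblast markers on the array all averaged under 64. Of 6 erythroid and megakaryocyte markers, 4 reached it, among them Gata1 and Klf1. These are bulk samples, so fewer expressing cells and less RNA per cell cannot be told apart in any result below.

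The members were selected on an earlier look at the log2 fold changes of NCOR1-LYN over control cells, so their values in this comparison are a description without a test. In limma, 0 of the 8 passed an adjusted p of 0.05 without a term for replicate number and 3 passed with it, namely Aldh1a1, Aldh1a7 and Aldh3a1, which was also the number at an unadjusted p of 0.05 in either fit. Over all tested genes 0.0824% were called without and 0.824% with that term, and 4.75% and 11.3% had an unadjusted p under 0.05, and nothing is read from the members' counts. Of the 8 genes, 7 lay above the limit on dim genes (a signal of about 47) and Aldh1b1 lay below it. Aldh1a1 and Aldh1a7 were above it only through the NCOR1-LYN arrays, since all their control signals were under the limit.

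Aldh1a1 encodes a cytosolic enzyme that turns retinaldehyde into retinoic acid, and Aldh1a7 is its rodent paralogue. Both genes lie on chromosome 19, where the RefSeq annotation places 3 other genes between them, 0 of them protein-coding. Their start regions are shown because both genes moved the same way. Each sequence covers the 250 bases before a RefSeq start of the gene in GRCm38.p6, 5′ to 3′ on the gene's own strand, from chr19:20601718-20601967 (plus strand) for Aldh1a1 and chr19:20727557-20727806 (minus strand) for Aldh1a7. Capitals mark matches to CCAAT, the CCAAT box.
Aldh1a1: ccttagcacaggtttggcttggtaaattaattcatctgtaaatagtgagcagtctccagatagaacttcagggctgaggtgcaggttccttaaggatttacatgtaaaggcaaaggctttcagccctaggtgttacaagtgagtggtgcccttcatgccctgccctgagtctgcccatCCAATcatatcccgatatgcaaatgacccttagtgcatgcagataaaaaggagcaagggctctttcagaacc
Aldh1a7: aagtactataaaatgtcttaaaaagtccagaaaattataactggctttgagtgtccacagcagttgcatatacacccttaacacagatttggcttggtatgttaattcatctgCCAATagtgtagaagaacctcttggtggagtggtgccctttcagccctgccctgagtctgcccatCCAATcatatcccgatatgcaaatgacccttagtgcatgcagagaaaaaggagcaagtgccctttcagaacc
Of the 100 bases nearest the start, 94 were identical between the 2 genes with no gap allowed, and of the 150 bases farther out 35 were. Bases were compared position by position, so an inserted or lost stretch lowers the count of 35. The 2 sequences were also alike farther out at shifted positions: ttaattcatctg, for example, lies in both at different distances from the start. In the same 100-base window, all other pairs of member start regions in the RefSeq table shared between 12 and 32 bases. Beside Aldh1a1 and Aldh1a7 these were of Aldh3a2, Aldh1b1 and Aldh9a1. No start region was available for Aldh3a1, Aldh2 and Aldh7a1, so Aldh3a1 with Aldh3a2, or Aldh2 with Aldh1b1, could not be compared. The nearer CCAAT began 72 bases before the start in both genes, and Aldh1a7 had a further match 137 bases before it. CCAAT on either strand was found in 33.9% of 32851 start regions of this length. No match to TTCNNNGAA, the palindrome bound by STAT factors (7.02% of start regions), or to TGACNNNGC, the core of the antioxidant response element (10.2%), lay in either window on either strand. TATAAA (12.4%) had 1 match in Aldh1a7, 244 bases before the start, and 0 in Aldh1a1. RefSeq also lists a start farther upstream for Aldh1a1, whose nearest 100 bases matched those of Aldh1a7 at 30 positions.

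The signal of Aldh1a1 (probe set 1416468_at) was 1607, 349 and 415 in NCOR1-LYN replicates 1, 2 and 3, against 3.51, 20.9 and 22.0 in the controls. All NCOR1-LYN arrays were far above all controls, and within the NCOR1-LYN group replicate 1 stood alone at the top while in controls it stood at the bottom. The group means were 790 ± 708 with NCOR1-LYN and 15.5 ± 10.4 in controls (SD, n = 3 each), a log2 fold change of 3.13. The pairs gave log2 changes of 4.63, 2.28 and 2.48, so pair 1 carried the excess over the others. Without both replicate 1 arrays the log2 fold change was 2.38. All 3 control signals were in the range where MAS5 values are noisy, so no linear fold is given.

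Aldh1a7 (1418601_at) had signals of 295, 182 and 231 with NCOR1-LYN, against 12.5, 45.8 and 31.0 in controls. The groups did not overlap, and replicate 1 was again the highest of the NCOR1-LYN arrays and the lowest of the controls. Means were 236 ± 56.5 with NCOR1-LYN and 29.8 ± 16.7 in controls (SD, n = 3 each), a log2 fold change of 1.68, with pair changes of 2.23, 1.16 and 1.64. Over the 6 arrays the log2 values of Aldh1a1 and Aldh1a7 had a Pearson correlation of 0.97. Both genes were chosen with their difference between the 2 groups known, so this value includes that split and is a description. Each gene had 1 probe set. The 2 transcripts share long stretches of sequence, and how far each probe set reads the other transcript was not tested.

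Aldh3a1 encodes an enzyme that oxidises aromatic and medium-chain aldehydes, abundant in the cornea and inducible through the aryl hydrocarbon receptor in liver cells. Its signal (1418752_at) was 307, 196 and 177 with NCOR1-LYN, against 1545, 681 and 589 in controls. The groups did not overlap, and replicate 1 was the highest array in both. The means were 227 ± 70.4 with NCOR1-LYN and 938 ± 528 in controls (SD, n = 3 each), a ratio of 0.242 and a log2 fold change of −1.69. The pair changes of −2.12, −1.52 and −1.44 had an SD of 0.37, against an SD of the log2 levels of 0.33 with NCOR1-LYN and 0.70 in controls. Replicate 1 exceeded the mean of replicates 2 and 3 by 0.57 with NCOR1-LYN and by 1.21 in controls on the log2 scale. Without both replicate 1 arrays the log2 fold change was −1.48. Aldh3a1 had Pearson correlations over the 6 arrays of −0.77 with Aldh1a1 and −0.89 with Aldh1a7. The genes were chosen with their opposite differences between the groups known, so these negative values follow from that split and are a description. Within the NCOR1-LYN group replicate 1 was the highest array for Aldh3a1, Aldh1a1 and Aldh1a7 alike.

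**Figure D1:**
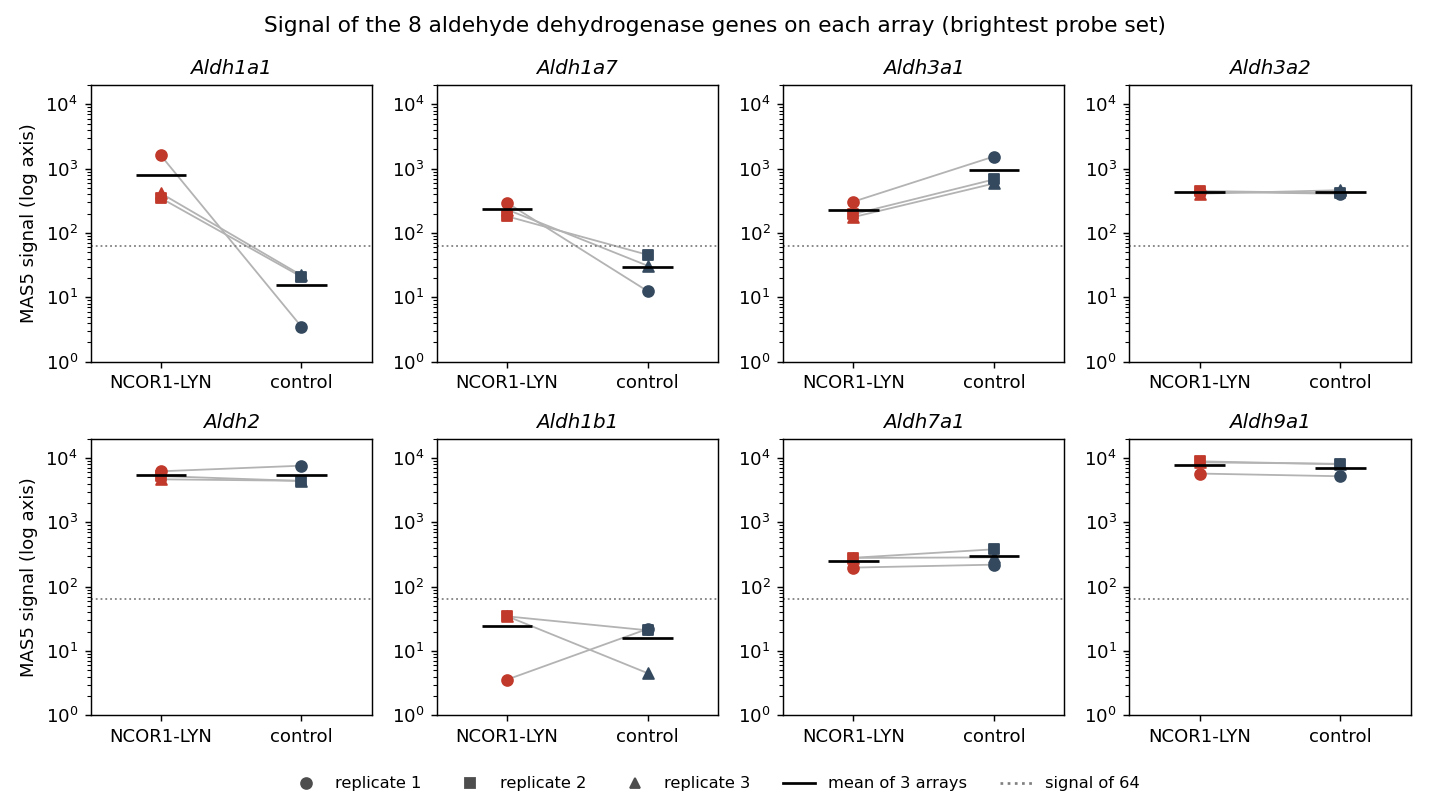
MAS5 signal on a log axis for the brightest probe set of each of the 8 genes, with NCOR1-LYN arrays left of controls, 1 point per array (shape gives the replicate number), grey lines joining arrays of the same number, black bars for group means and a dotted line at 64. Aldh1a1 and Aldh1a7 lie above the line with NCOR1-LYN and below it in controls, Aldh3a1 is lower with NCOR1-LYN in all 3 pairs, and the other 5 genes overlap between groups.

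The remaining 5 genes had overlapping groups in their brightest probe sets, with log2 fold changes between −0.17 and 0.13. Aldh3a2, the neighbour of Aldh3a1 in the family and the fatty aldehyde dehydrogenase of the endoplasmic reticulum, was the steadiest. Its signals were 437, 450 and 408 with NCOR1-LYN, against 408, 418 and 463 in controls. The groups overlapped almost fully, with means of 432 ± 21.4 and 430 ± 29.3 in NCOR1-LYN and control cells (SD, n = 3 each) and a log2 fold change of 0.01.

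Aldh2, the mitochondrial enzyme that clears acetaldehyde, had 5 probe sets. The brightest (1448143_at) read 6194, 5218 and 4649 with NCOR1-LYN, against 7569, 4383 and 4408 in controls, a log2 fold change of 0.01. Its groups overlapped, and replicate 1 was the highest array in both. A second probe set (1434987_at) read 812, 904 and 1005 with NCOR1-LYN, against 1368, 1150 and 1042 in controls. Here the groups did not overlap, with a log2 fold change of −0.36 and pair changes of −0.71, −0.33 and −0.05. The probe set 1434988_x_at, whose suffix marks probes that may match other sequences, had pair changes of −0.45, 0.27 and −0.20, with overlapping groups. In 1437410_at the arrays parted first by replicate number, with 514, 147 and 142 with NCOR1-LYN, against 575, 178 and 173 in controls. In this probe set replicate 1 exceeded the mean of replicates 2 and 3 by 1.47 with NCOR1-LYN and by 1.42 in controls on the log2 scale, while in the brightest probe set the same differences were 0.33 with NCOR1-LYN and 0.78 in controls. Within pairs it was lower with NCOR1-LYN each time, by log2 changes of −0.14, −0.20 and −0.20. The fifth probe set, 1457155_at, was near background, with means of 38.8 ± 25.4 with NCOR1-LYN and 57.6 ± 11.5 in controls (SD, n = 3 each) and pair changes of −0.03, −0.46 and −0.31. Of the 5 probe sets, 4 thus had negative mean changes, from −0.36 to −0.13, and the brightest lay at 0.01.

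Aldh9a1 oxidises an aldehyde intermediate of carnitine synthesis. Its brightest probe set (1436689_a_at) read 5713, 8844 and 8527 with NCOR1-LYN, against 5189, 7972 and 8102 in controls. The arrays parted by replicate number, with replicate 1 the lowest in both groups, while the pair changes were 0.14, 0.15 and 0.07. The second probe set (1437398_a_at) read 3160, 2910 and 3035 with NCOR1-LYN, against 3293, 2595 and 2738 in controls. In this one replicate 1 was the highest in both groups, and the pair changes were −0.06, 0.16 and 0.15. On the log2 scale replicate 1 differed from the mean of replicates 2 and 3 by −0.60 with NCOR1-LYN and −0.62 in controls in the brightest probe set, and by 0.09 with NCOR1-LYN and 0.30 in controls in the second.

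Aldh7a1, an enzyme of lysine breakdown also called antiquitin, read 198, 281 and 279 in its brightest probe set (1460167_at) with NCOR1-LYN, against 220, 380 and 285 in controls. The groups overlapped, with means of 253 ± 47.6 with NCOR1-LYN and 295 ± 80.9 in controls (SD, n = 3 each) and a log2 fold change of −0.17. Its other probe sets, 1415902_at and 1448137_at, stayed under 64 on all arrays, with mean signals over the 6 arrays of 4.53 and 8.18. Aldh1b1, a mitochondrial relative of Aldh2, was likewise under 64 on every array. Its single probe set (1451260_at) read 3.60, 34.5 and 34.7 with NCOR1-LYN, against 22.1, 21.0 and 4.52 in controls, and these low values overlapped.

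**Figure D2:**
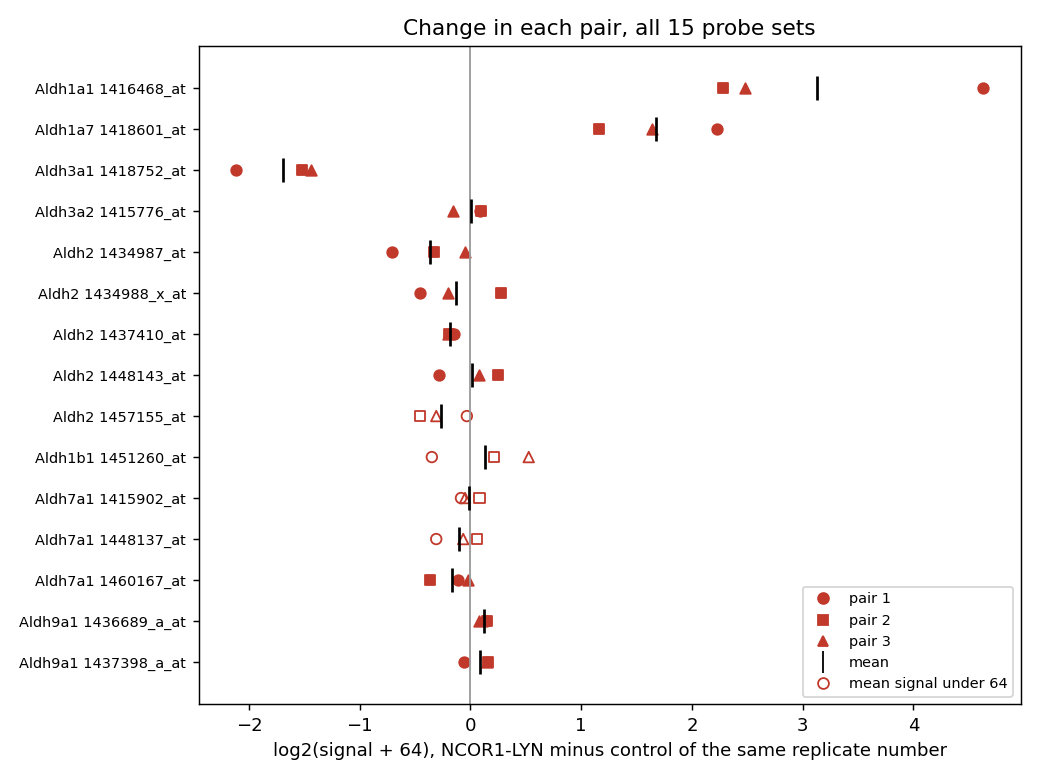
Change in log2(signal + 64), NCOR1-LYN minus control, within each same-numbered pair (shape) for all 15 probe sets, with a black tick at the mean and open symbols where the mean signal was under 64. The pairs of Aldh1a1 and Aldh1a7 lie at 1.16 or above and those of Aldh3a1 at −1.44 or below, and the pairs of all other probe sets lie between −0.71 and 0.53.

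Across the 15 probe sets the groups did not overlap in 4, those of Aldh1a1, Aldh1a7 and Aldh3a1 and 1434987_at of Aldh2. Over the 34945 probe sets with 1 gene symbol, 10.4% did not overlap, and nothing is read from the members' count. The median log2 fold change of the 8 genes was 0.07, against −0.01 over the 10916 genes tested.

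The other aldehyde dehydrogenases and the pathways around them were listed with earlier results of these data known, though not for their own values, and their results come from the test across all genes. Of 46 distinct tested genes in 5 lists, 0 passed in limma either with or without the term for replicate number, against 0.824% and 0.0824% of all genes. At an unadjusted p of 0.05 there were 8 with the term and 3 without, where 11.3% and 4.75% of all genes lay, and the list counts below are to be read against these shares. The median log2 fold change of the 46 was −0.06, and the largest absolute change was 0.81.

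Of 13 other family genes, 12 were on the array with a probe set of their own and 5 lay above the limit on dim genes, Aldh3b2, Aldh4a1, Aldh6a1, Aldh16a1 and Aldh18a1. In limma 0 of these 5 passed, also at an unadjusted p of 0.05, and their log2 fold changes ran from −0.17 (Aldh3b2) to 0.12 (Aldh16a1). Aldh18a1, which makes the proline precursor pyrroline-5-carboxylate and was picked out after its values were seen, had 5486, 7721 and 7745 with NCOR1-LYN, against 4624, 7494 and 7450 in controls, with replicate 1 the lowest in both groups. The retinaldehyde dehydrogenases Aldh1a2 and Aldh1a3, which share the substrate of Aldh1a1, were dim on every array: the single probe set of Aldh1a2 (1422789_at) averaged 14.1 with NCOR1-LYN and 11.6 in controls, and the 3 probe sets of Aldh1a3 stayed under 64.

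In the list of retinoid metabolism and receptors 16 of 29 genes were tested, 5 with positive and 11 with negative changes (median −0.06). In limma 0 passed, with 1 at an unadjusted p of 0.05 (4.75% of all genes), or 3 with the term for replicate number (11.3% of all genes). Tgm2, the gene of transglutaminase 2 and a known target of retinoic acid receptors, had the largest change of the list. It read 24050, 4664 and 3408 with NCOR1-LYN, against 28862, 8481 and 8526 in controls. Its arrays parted first by replicate number, with replicate 1 far above the rest in both groups, and within pairs the changes were −0.26, −0.85 and −1.31 (log2 fold change −0.81 ± 0.78 SE, adjusted p = 0.999 in limma, 0.139 with the term). With the replicate 1 arrays of either group set aside, leaving 2 per group, Tgm2 fell by 1.08 on the log2 scale (adjusted p = 0.000536 in limma, where 6.82% of all genes were called). This alternative was chosen after seeing the data. Its 5 other probe sets had log2 fold changes of −0.97 to −0.20. Rara, which encodes retinoic acid receptor alpha and was picked out after its values were seen, read 216, 188 and 213 with NCOR1-LYN, against 145, 72.4 and 128 in controls. The groups did not overlap, and the log2 fold change was 0.61 ± 0.19 (SE, adjusted p = 0.718 in limma, 0.178 with the term). Adh7, a retinol-oxidising alcohol dehydrogenase also picked out after its values were seen, averaged 94.2 with NCOR1-LYN and 60.6 in controls, a log2 fold change of 0.37 (adjusted p = 0.999 in limma).

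The list of NRF2 targets and carbonyl detoxification held 17 tested genes of 26, 5 with positive and 12 with negative changes (median −0.09), of which 0 passed in limma and 1 had an unadjusted p under 0.05, or 3 with the term for replicate number. Hmox1, the gene of haem oxygenase 1, had the largest change of the list. It read 344, 488 and 444 with NCOR1-LYN, against 389, 705 and 810 in controls. The groups overlapped through control replicate 1, and the log2 fold change was −0.47 ± 0.26 (SE, adjusted p = 0.999 in limma, 0.289 with the term). The conjugate exporter gene Abcc1, picked out after its values were seen, read 2914, 2451 and 2782 with NCOR1-LYN, against 3384, 3796 and 3513 in controls, without overlap (log2 fold change −0.39 ± 0.12 SE, adjusted p = 0.718 in limma). Its dimmer second probe set had a log2 fold change of −0.14. Nqo1, the quinone reductase gene that NRF2 and the aryl hydrocarbon receptor both induce, also picked out after its values were seen, had a log2 fold change of 0.07 ± 0.19 (SE, adjusted p = 0.999 in limma). Without both replicate 1 arrays, Hmox1 and Abcc1 fell, by 0.63 and 0.47 on the log2 scale (adjusted p = 0.00628 and 0.00558 in limma), and the glutathione transferase gene Gstp1 rose by 0.31 (0.0110). In that fit 6.82% of all genes were called. On all arrays Gstp1, named after its values were seen, had a log2 fold change of 0.09 (adjusted p = 0.999 in limma), with pair changes of −0.36, 0.32 and 0.31.

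Of the aryl hydrocarbon receptor battery, 3 of 10 genes were tested, Arnt, Tiparp and Nqo1, and 0 passed in limma, also at an unadjusted p of 0.05. Tiparp, a target of the receptor, had the largest change at 0.11 ± 0.13 (log2 fold change, SE), with signals of 1195, 1056 and 1197 with NCOR1-LYN, against 984, 1140 and 1046 in controls. These overlapped, while Aldh3a1, which the same receptor induces in liver cells and which was chosen with its values known, differed without overlap. A difference between Aldh3a1 and this list was not tested. Of the pathways that produce aldehydes, 6 of 17 genes were tested, 2 with positive and 4 with negative changes, and 0 passed in limma (1 at an unadjusted p of 0.05, 2 with the term for replicate number). Odc1, the ornithine decarboxylase of polyamine synthesis, read 7950, 6954 and 6819 with NCOR1-LYN, against 4559, 5826 and 6045 in controls, without overlap (log2 fold change 0.41 ± 0.14 SE, adjusted p = 0.903 in limma). Its 2 other probe sets had overlapping groups, with log2 fold changes of 0.02 (1427364_a_at) and 0.40 (1437711_x_at).

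**Figure D3:**
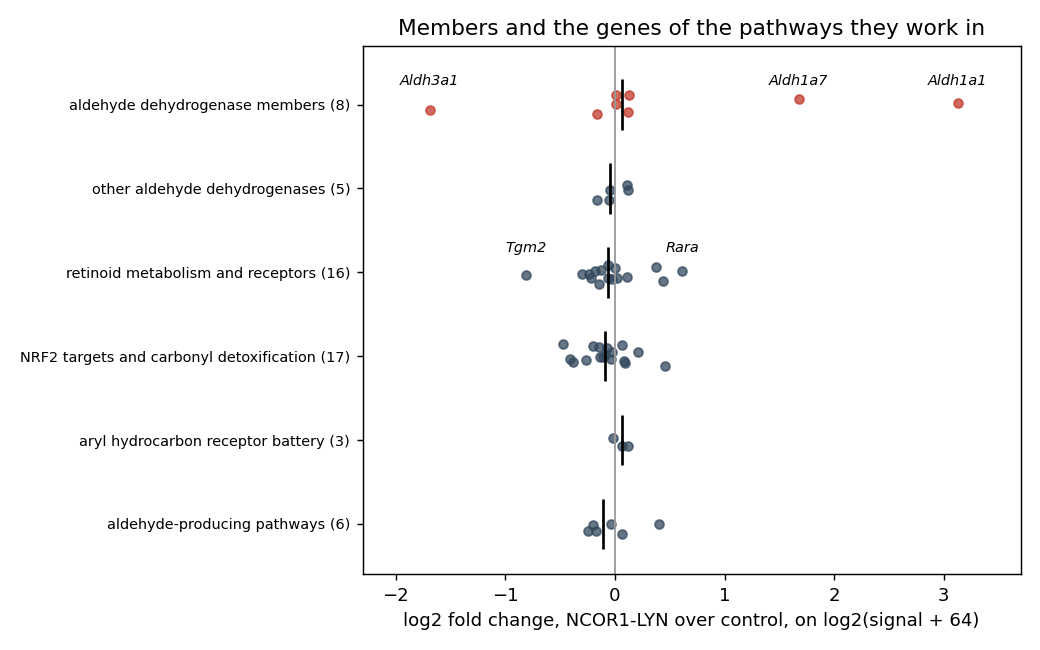
Log2 fold change, NCOR1-LYN over control, on log2(signal + 64) for the 8 members (red, brightest probe set) and for the tested genes of the 5 lists around them (dark), 1 point per gene with a black tick at the median and the number of genes in brackets. Aldh1a1 (3.13), Aldh1a7 (1.68) and Aldh3a1 (−1.69) lie outside the range of all list genes, whose largest changes are Tgm2 (−0.81) and Rara (0.61). The members were chosen with their changes in this comparison known and the list genes were not chosen for theirs, so nothing is read from this.

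The genes most like Aldh1a1, Aldh1a7 and Aldh3a1 were sought by Pearson correlation over the 6 arrays among 746 tested genes with an SD of at least 0.5 on the log2 scale. All 6 points share the split into groups and the offset of replicate 1, so the correlations are a description. Closest to Aldh1a1 were AU020206 (0.998), Nin (0.991), Ccdc180 (0.976), Zfp950 (0.953) and Ltf (0.952). AU020206 read 2254, 1494 and 1532 with NCOR1-LYN, against 875, 977 and 984 in controls, so that, as for Aldh1a1, NCOR1-LYN replicate 1 was the highest array and control replicate 1 the lowest. Nin, which encodes the centrosome protein ninein, had the same order at its ends, with 1852 in NCOR1-LYN replicate 1 and 730 in control replicate 1. Of the 2 dimmer probe sets of Ccdc180, 1443752_at went the other way, with a log2 fold change of −0.77. The 2 other probe sets of Nin had log2 fold changes of 0.67 and 0.82.

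Closest to Aldh1a7 were Ltf (0.985), Nin (0.980), Ston2 (0.976), AU020206 (0.962) and Ccdc180 (0.960). Ltf, the gene of the neutrophil granule protein lactoferrin, read 657, 502 and 541 with NCOR1-LYN, against 36.9, 60.4 and 85.1 in controls. The summed signal of the 10 myeloid markers on the array was 7583, 10300 and 10533 with NCOR1-LYN, against 2656, 2716 and 2626 in controls. It was thus higher with NCOR1-LYN, and lowest of that group in replicate 1, where Prtn3 read 1745 against 4326 and 4782 in replicates 2 and 3. The markers differed in this. Within the NCOR1-LYN group Prtn3, Ngp, Mpo and Cd14 were lowest in replicate 1. Ltf, Lyz2, Itgam, Elane and Ctsg were highest there, as were Aldh1a1 and Aldh1a7, and Csf1r lay between. Most of the sum came from Ngp, with means of 4439 with NCOR1-LYN and 822 in controls, and from Prtn3, with means of 3618 and 1195 in NCOR1-LYN and control cells and overlapping groups. In limma 1 of the 10 rose, Ltf, with or without the term for replicate number. Ngp had a log2 fold change of 2.71 without overlap. Those of Prtn3 (1.49), Mpo (0.59), Lyz2 (0.47), Itgam (0.395) and Elane (0.20) were positive with overlapping groups. Csf1r (−0.04), Ctsg (−0.07) and Cd14 (0.05) lay near 0. Elane, Ctsg, Cd14 and Itgam averaged under 64.

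The summed signal of the 9 mast cell and basophil markers was 1911, 4686 and 3960 with NCOR1-LYN, against 1915, 921 and 865 in controls, with replicate 1 alike in both groups. The higher sum came from Fcer1a, the alpha chain of the IgE receptor, with means of 3234 with NCOR1-LYN and 568 in controls, without overlap. Cma1 (mast cell chymase) averaged 46.2 with NCOR1-LYN and 330.2 in controls and Mcpt8 (a basophil protease) 6.83 with NCOR1-LYN and 41.3 in controls, both without overlap. The alike sums of replicate 1 held opposite differences. There Fcer1a read 1596 with NCOR1-LYN and 975 in control, and Cma1 80.5 with NCOR1-LYN and 615 in control. In limma 0 of the 9 markers rose, and 1 fell with the term for replicate number, Cma1. Of the 9, 6 averaged under 64, among them Kit and Cpa3. The part of either marker list in the values of Aldh1a1 and Aldh1a7 was not tested.

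Closest to Aldh3a1 were Rab19 (0.993), Cxcr2 (0.986), Isg20 (0.978), Vegfc (0.977) and Pstpip1 (0.977), all 5 lower with NCOR1-LYN and highest in control replicate 1. Rab19, a small GTPase gene, read 261, 125 and 119 with NCOR1-LYN, against 1527, 700.4 and 659 in controls. Cxcr2, a chemokine receptor gene of neutrophils, read 103, 13.4 and 14.0 with NCOR1-LYN, against 649, 242 and 262 in controls. In both genes, as in Aldh3a1, replicate 1 was the highest array of each group. Pstpip1, an adaptor of the cytoskeleton in blood cells, averaged 335 with NCOR1-LYN and 737 in controls.

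**Figure D4:**
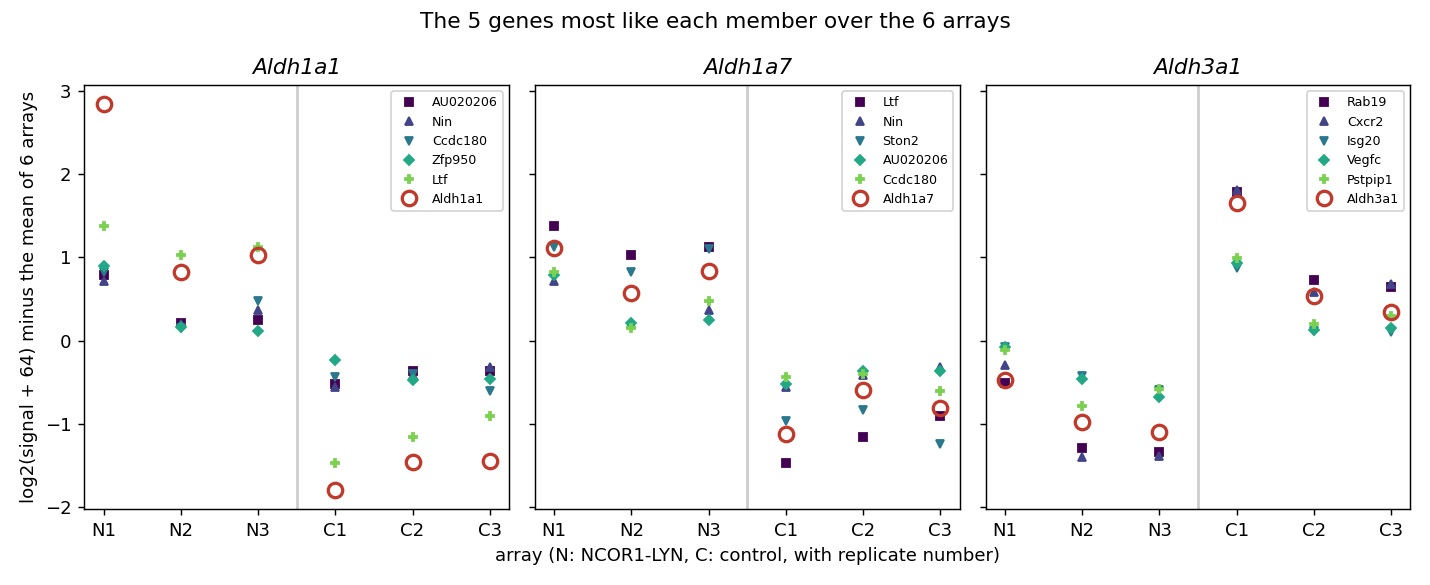
Log2(signal + 64) minus the gene's mean over the 6 arrays, for NCOR1-LYN replicates (N1 to N3) and controls (C1 to C3), with Aldh1a1, Aldh1a7 and Aldh3a1 as open red circles and the 5 most correlated genes of each in colour. Aldh1a1 lies highest in N1 and lowest in C1, and the genes beside Aldh3a1 lie highest in C1.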

How the data were processed

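Total RNA of 6 Ba/F3 cultures was labelled and hybridised to 1 array each. The deposited values are intensities on a linear scale, which the authors computed with MAS5, per the submitters' processing notes, and its version is not given in the sources used here. No detection calls were used, and 50.6 to 52.7% of an array's signals lay below 64. The number of arrays limits the precision. Groups and replicate numbers came from the labels. Of 45101 probe sets, 34945 had exactly 1 symbol in the platform annotation (18193 genes), 932 had several, 9160 had none and 64 were controls. Each gene was represented by its brightest probe set on log2(signal + 64), without further scaling, and genes below the 40th percentile of the mean were left out of tests, which left 10916. These were tested with limma (3.58.1, R 4.3.3) (lmFit, then eBayes with trend), two-sided, all 6 arrays, Benjamini-Hochberg adjustment over all genes, and no covariate. The alternative fit adds the replicate number as a block. Fits were tested on simulated data. All 8 members matched RefSeq (GRCm38.p6) by Entrez identifier, and 5 had a start region there. The array values carry no genome build.

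Deviations of same-numbered arrays from their group means correlated across genes at 0.62, 0.41 and 0.44 for replicates 1, 2 and 3, all above 0.1, so numbers were taken to pair arrays. The labels state no shared day, and replicates 2 and 3 were not told apart (0.48 and 0.39 when crossed). Deviations cancel out within a group, so with replicate 1 apart in both groups, replicates 2 and 3 correlate positively in either pairing. Their values above 0.1 thus do not bear on which of them belong together.

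The members and lists were chosen with earlier results of these data known. Named genes were all member probe sets, in each list every gene past the threshold without or with the block or, failing that, its largest change, and the 5 genes most correlated with Aldh1a1, Aldh1a7 and Aldh3a1; list genes outside this rule are marked as picked out after their values were seen. Alternatives were other offsets, scalings, filters and probe set rules, array weights and leaving out arrays.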

Additional observations from a re-analysis of the deposited data

How the results depend on the processing

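Aldh1a1 and Aldh1a7 stayed higher and Aldh3a1 lower with NCOR1-LYN in all 14 alternatives run. Their log2 fold changes ran from 1.75 to 4.40, 0.78 to 2.51 and −1.94 to −1.23. The groups of these genes do not overlap, so other offsets, the block, array weights and leaving out arrays could not change a sign. Each had 1 probe set, so the mean of probe sets could not either, and nothing is read from the count of alternatives. The outer values of Aldh1a1 and Aldh1a7 came from the larger and the smaller offset, so the size of their change rests on the offset. The sign changed in 7 of 14 for Aldh3a2 and 6 of 14 for Aldh2 (−0.18 to 0.27), both near 0. For Aldh9a1, leaving out control replicate 1 gave −0.09. The median of the 8 (0.07) ran from 0.02 without NCOR1-LYN replicate 2 to 0.16 without NCOR1-LYN replicate 1, and was 0.12 with array weights and 0.14 with the replicate 1 arrays of both groups left out, an alternative chosen after seeing the data. Without the block 9 genes passed in limma over all genes, 90 with the replicate block, 502 with array weights, 744 without both replicate 1 arrays, and 1 with no filter or one at the 60th percentile. Leaving out 1 array gave 0 to 15: 0 without NCOR1-LYN 2 or 3 or control 2 or 3 (345 to 408 at an unadjusted p of 0.05), and 15 without control 1. Of the 46 list genes, 3 passed with array weights (Abcc1, Hmox1 and Rara), a fit that called 502 of all 10916 genes. Leaving out the replicate 1 arrays of both groups gave 4 (Abcc1, Gstp1, Hmox1 and Tgm2), where 6.82% of all genes were called. In each other alternative 0 list genes passed, among them the replicate block and leaving out any 1 array. Nothing is read from these list counts, and the cause of their differences was not tested. Replicate 1 arrays had weights of 0.209 (NCOR1-LYN) and 0.161 (control), so these last 2 fits are not separate support.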
